A study of Mus musculus with 4 samples.

Results

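The 9 Wnt ligand genes Wnt2, Wnt4, Wnt5a, Wnt5b, Wnt6, Wnt7b, Wnt9a, Wnt10a and Wnt11 were followed in C2C12, an established line of mouse myoblasts, by taking every probe set whose platform symbol was one of these names. They were read by 12 of the 22690 probe sets and are 9 of the 12393 genes that could be named. The Wnt3A group was cells held for 48 hours in G0, a resting state that cells can leave to divide again, by suspension in methyl cellulose with purified Wnt3A protein at 50 ng/ml. The control group was cells of the same line in the same suspension for 48 hours, labelled as control treatment. Each group had 2 Affymetrix arrays of total RNA, called biological replicates in the labels. All 4 arrays are of suspended cells, so quiescence itself was not compared with growth, and a single immortal line stands for the myoblast.

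Wnt proteins are secreted, lipid-modified ligands. Porcn attaches the lipid in the endoplasmic reticulum and Wls carries the loaded ligand to the cell surface, where it binds Frizzled receptors together with Lrp5 or Lrp6, or with Ror and Ryk. In the canonical branch this stabilises β-catenin, which acts on DNA through TCF/LEF factors, and in the non-canonical branches it acts on cell polarity and calcium. In muscle, Wnt signalling takes part in myoblast commitment in the embryo and in the behaviour of satellite cells, the stem cells of adult muscle.

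Wnt4 and Wnt11, the members that stood furthest apart between the groups, are shown first by the bases that precede their annotated starts in the mouse genome (RefSeq, GRCm38.p6). The sequences are given 5′ to 3′ on the plus strand, and capitals mark matches on either strand to the TCF/LEF core CTTTGAT or to the GC box GGGCGG. Wnt11 lies at chr7:98834862-98835083 and Wnt4 at chr4:137277385-137277634.
Wnt11: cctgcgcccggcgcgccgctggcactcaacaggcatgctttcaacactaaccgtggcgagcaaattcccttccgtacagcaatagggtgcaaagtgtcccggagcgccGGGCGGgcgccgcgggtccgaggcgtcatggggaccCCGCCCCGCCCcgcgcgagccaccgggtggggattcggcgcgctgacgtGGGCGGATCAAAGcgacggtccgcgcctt
Wnt4: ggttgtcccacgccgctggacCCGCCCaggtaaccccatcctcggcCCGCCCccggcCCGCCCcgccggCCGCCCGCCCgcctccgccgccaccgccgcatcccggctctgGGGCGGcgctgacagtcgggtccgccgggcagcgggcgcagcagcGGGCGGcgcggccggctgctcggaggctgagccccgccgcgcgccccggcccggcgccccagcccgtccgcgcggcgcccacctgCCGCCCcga
The Wnt11 window shown, of 222 bases before the first annotated start, holds 1 match to CTTTGAT, on the minus strand, which reads ATCAAAG above. It begins 23 bases before the end of the window and directly follows a GC box, without overlap. Of all 32851 start windows in the table, 2.93% hold that core in their first 222 bases. The Wnt4 window holds no match to it, is 85.2% G or C, and holds 8 matches to the GC box, 6 of them on the minus strand and some overlapping each other. A GC box occurs in 32.7% of all windows of 250 bases. The table has 9 start windows for 6 of the 9 members, namely Wnt2, Wnt4, Wnt5b, Wnt6, Wnt9a and Wnt11, and the TCF/LEF core occurs in 1 of the 3 windows of Wnt5b and in 1 of the 2 windows of Wnt11. The other Wnt11 window, at a start further into the gene, holds neither the core nor a GC box. Axin2, which helps degrade β-catenin and is itself a standard target gene of the pathway, has 1 window, which has no match to the core. These matches describe letters in short windows and not binding.

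Signals are read as log2 because the values span 0.50 to 13.23, which suits that scale; the base is not stated, and with another base all differences would change in proportion. The table has no detection calls. A signal was called above background where it exceeded, on the same array, the 90th percentile of 85 probe sets for 54 genes restricted to other tissues, such as lens, retina and pancreas genes. That limit was 2.63 and 2.81 on Wnt3A replicates 1 and 2, and 2.84 and 3.06 on control replicates 1 and 2. By this rule 66.5% of all named genes were above background on both arrays of at least 1 group. Some of the 54 genes behind the limit were themselves above it on some or all arrays. Cela1 read 6.21 and 6.53 on the Wnt3A arrays, against 6.32 and 7.69 on the control arrays. The brightest Mbp probe set read 2.53 and 2.43 with Wnt3A, against 3.10 and 3.43 in control. The part of such genes in the limits was not tested. Median signals of the arrays lay between 4.15 and 4.22. Wnt3A replicate 2 stood furthest from the rest, with r = 0.936 against control replicate 1, where the highest correlation of a pair was 0.978. The 3′ probe set of 18S ribosomal RNA read 10.35 and 9.17 on the Wnt3A arrays, and 10.28 and 7.24 on the control arrays, so its low value belonged to control replicate 2; its part in the results was not tested.

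Myoblast identity was checked with 10 markers. Of these, 8 were above background on both Wnt3A arrays and 9 on both control arrays, among them Myod1 and Myf5, which commit cells to muscle, and Des, the muscle intermediate filament gene. Pax7, a satellite cell marker, was below background on all 4 arrays. None of 6 endothelial markers passed the limit on any array, while the epithelial marker Krt19, Lpl of fat cells, Pdgfra and Dcn of fibroblasts and Cd14, Csf1r and Cd68 of leukocytes did on some or all arrays. The summed linear signal of the 10 myoblast markers was 2323 and 1966 on the Wnt3A arrays, against 1990 and 2793 on the control arrays, so the sums overlapped. Single markers went both ways. Vcam1 differed by -3.94, Myod1 by -2.002 and Myog by -1.59, and Myf5 by 1.43 and Ncam1 by 0.56. Each was without overlap between groups and none passed an adjusted p of 0.05 in limma. On Wnt3A replicates 1 and 2 Vcam1 read 6.41 and 1.82, and Myod1 6.32 and 3.62, so both sizes rested largely on replicate 2. The other Ncam1 probe sets above background differed by 0.27 without overlap between groups, and by 0.22 and -0.06 with overlap. For 8 fibroblast markers the sum was 546 and 394 on the Wnt3A arrays, against 868 and 916 on the control arrays. It came mostly from Pdgfra and Dcn, and of 5 tested fibroblast markers 4 were lower with Wnt3A. The other, Col1a1, differed by 0.54 with overlap between groups. Of the 4, Fap was bright enough to be tested only through its control values. It read 2.93 and 3.54 in control, against 1.79 and 1.38 with Wnt3A, both below background. For 6 adipocyte markers the sum was 111 and 49.4 on the Wnt3A arrays, against 2246 and 448 on the control arrays. Most of that sum was 1 gene, Lpl, at 6.54 and 4.92 with Wnt3A, against 11.10 and 8.70 in control. All 3 tested adipocyte markers were lower. For 7 leukocyte markers the sum was 105 and 146 on the Wnt3A arrays, against 219 and 201 on the control arrays. Of the 4 leukocyte markers tested, Cd14 differed by -1.16 and Fcgr3 by -0.45, while Csf1r differed by 1.03 and Cd68 by 0.28, each without overlap between groups. Csf1r read 3.53 and 5.19 on the Wnt3A arrays, against 3.26 and 3.39 on the control arrays. Its other probe sets differed by 1.29 and 0.14, with overlap between groups in both. For 6 epithelial markers it was 27.7 and 67.8 on the Wnt3A arrays, against 26.1 and 41.1 on the control arrays, and for 6 endothelial markers 21.2 on both Wnt3A arrays, against 22.8 and 21.1 on the control arrays. The part of these shifts in the Wnt ligand values was not tested, and in bulk RNA fewer cells of a type and less RNA per cell cannot be told apart.

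Of the 9 members, 5 were above background on both arrays of at least 1 group: Wnt4, Wnt6, Wnt7b and Wnt10a in both groups, and Wnt11 with Wnt3A only by this limit. The other 4, Wnt2, Wnt5a, Wnt5b and Wnt9a, did not reach it on both arrays of either group. The signal of a probe set depends on its probes, so the members are not ranked by level against each other.

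**Figure D1:**
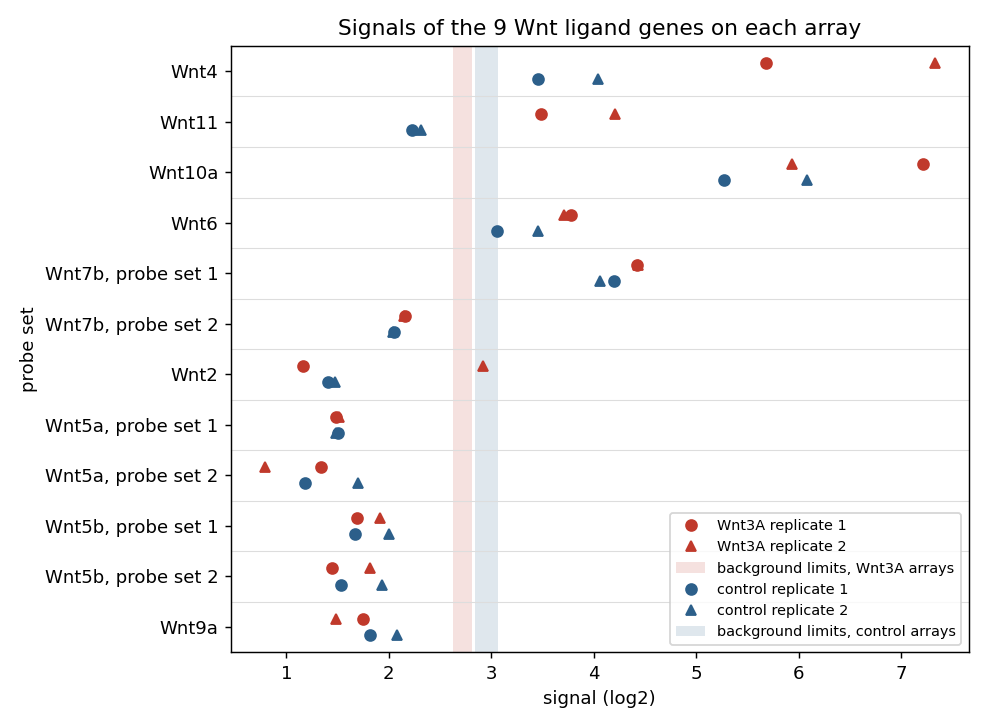
Signal (log2) of each of the 12 probe sets of the 9 Wnt ligand genes on each array, with Wnt3A arrays in red above control arrays in blue, circles for replicate 1 and triangles for replicate 2; where a gene has several probe sets, number 1 is the brighter. Shaded bands span the background limits of the arrays of each group, and Wnt4 and Wnt11 show the widest gaps between red and blue points.

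Wnt4, a ligand that acts through β-catenin or through other branches depending on the cell, and that in mouse muscle is supplied by the fibre to keep satellite cells quiescent, read 5.68 and 7.33 on the Wnt3A arrays, against 3.45 and 4.04 on the control arrays. Both Wnt3A arrays lay above both control arrays, with a gap of 1.64 between the nearest arrays of the groups. The Wnt3A mean was 6.51 ± 1.16 and the control mean 3.75 ± 0.42 (SD, n = 2 arrays each). The log2 difference was 2.76 (95% confidence interval 1.17 to 4.35), which is 6.78-fold, with an adjusted p of 0.572 in limma over all 9294 genes tested and an unadjusted p of 0.00714. No gene passed an adjusted p of 0.05 in that fit (0 of 9294, or 0%; 528 genes, or 5.68%, had an unadjusted p under 0.05). The 2 Wnt3A arrays were themselves 1.65 apart, and without Wnt3A replicate 2 the difference was 1.94. Wnt4 ranked 113 of the tested genes by p.

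Wnt11, a ligand of the polarity branch that orients elongating muscle fibres in the chick embryo, read 3.49 and 4.21 on the Wnt3A arrays, against 2.22 and 2.31 on the control arrays. The Wnt3A arrays were both above their background limits and the control arrays both below theirs, a pattern shared by 1.15% of all tested genes. The means were 3.85 ± 0.51 with Wnt3A and 2.27 ± 0.06 in control (SD, n = 2 arrays each). The measured log2 difference was 1.58 (95% confidence interval 0.83 to 2.33, adjusted p = 0.482 and unadjusted p = 0.00326 in limma). Set against the mean background limit of the control arrays, in place of their measured mean, the Wnt3A mean was 1.86-fold higher. That value has no interval and depends on the limit chosen, so it is not a minimum. With the 95th percentile of the same probe sets as the limit, the control limits were higher, at 3.38 and 3.39. The 95% confidence interval of the measured difference began at 1.78-fold. The rank of Wnt11 by p among the tested genes was 61. Without Wnt3A replicate 2 the difference was 1.22.

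Wnt10a, a β-catenin-activating ligand of tooth and hair development that also restrains fat cell formation in mouse precursors, read 7.22 and 5.93 on the Wnt3A arrays, against 5.27 and 6.08 on the control arrays. The groups overlapped, since Wnt3A replicate 2 lay below control replicate 2. The means were 6.57 ± 0.91 with Wnt3A and 5.68 ± 0.57 in control, a log2 difference of 0.90 (SD, n = 2 arrays each; 95% confidence interval -0.50 to 2.30, adjusted p = 0.917 in limma). Its size rested on single arrays: it was 0.26 without Wnt3A replicate 1, 0.49 without control replicate 1 and 1.54 without Wnt3A replicate 2.

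Wnt6, which lies next to Wnt10a on chromosome 1 and is known for epithelial signalling to the somites in the chick, read 3.78 and 3.71 on the Wnt3A arrays, against 3.06 and 3.46 on the control arrays. The groups did not overlap, and the gap between their nearest arrays was 0.25. The log2 difference was 0.48 (95% confidence interval -0.09 to 1.05, adjusted p = 0.917 in limma), 0.28 without control replicate 1. The Wnt3A arrays were 1.29 apart for Wnt10a and 0.07 apart for its neighbour Wnt6.

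Wnt7b, a ligand of lung, kidney and bone development, had 2 probe sets. The brighter read 4.42 and 4.44 on the Wnt3A arrays, against 4.20 and 4.06 on the control arrays. The dimmer read 2.16 and 2.15 on the Wnt3A arrays, against 2.05 and 2.04 on the control arrays, and was below background on all 4. In both probe sets the Wnt3A arrays lay above the control arrays, by a log2 difference of 0.30 in the brighter (95% confidence interval -0.22 to 0.82, adjusted p = 0.927 in limma) and 0.10 in the dimmer. The 2 Wnt3A arrays of the brighter probe set differed by 0.01.

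**Figure D2:**
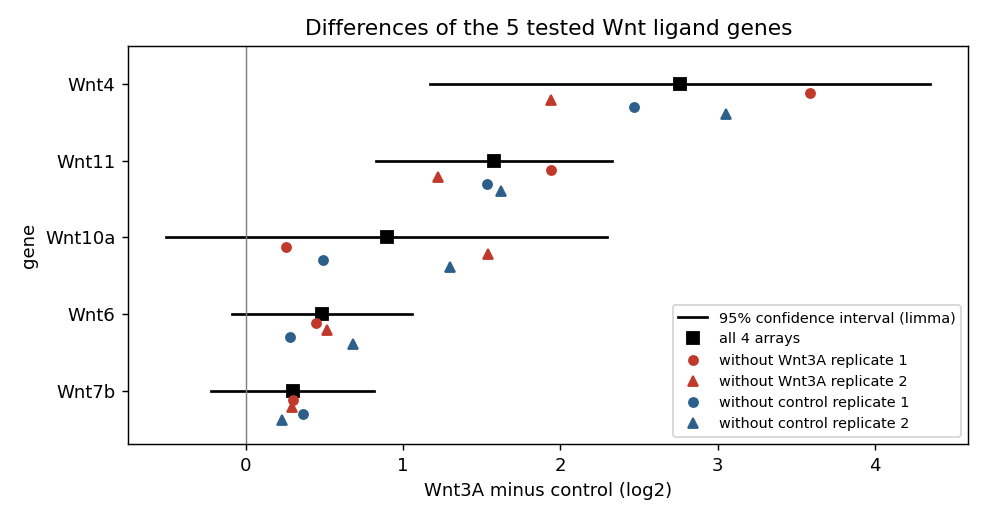
Difference of Wnt3A minus control (log2) for the 5 tested Wnt ligand genes, as squares with the 95% confidence interval from limma over all 4 arrays, and as coloured points with 1 array left out at a time. The intervals of Wnt4 and Wnt11 lie above 0 before adjustment over all genes and those of Wnt10a, Wnt6 and Wnt7b reach below it; no coloured point is below 0.

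Of the 5 members that passed the filter on dim genes (a mean over the 4 arrays above 2.18), 0 passed an adjusted p of 0.05 in limma, and 2, Wnt4 and Wnt11, had an unadjusted p under 0.05. All 5 were higher with Wnt3A, where 47.0% of all tested genes were. In 4 of the 5 the groups did not overlap, where 14.7% of all tested genes had non-overlapping groups in that direction. The members were chosen with earlier results of these data known, so these counts describe the members and are not a test. Over all 9 members, 4 of them too dim to be tested, the groups did not overlap in 5, Wnt9a being the 1 in the other direction. Of all tested genes, a set without such dim genes, 34.4% had non-overlapping groups and 19.8% in the lower direction. By measured values 1.54% of all tested genes were 2-fold or more higher with Wnt3A without overlap. Wnt4 was among them, and so was Wnt11. The control values of Wnt11 were below background, and against the control background limits its Wnt3A mean was 1.86-fold higher. The median difference of the 5 tested members was 0.90, against -0.02 over all tested genes. With each array set to its hybridization controls, bacterial and phage transcripts, that median became 0.30 and 0.527% of all tested genes passed. Under that scaling the differences were 3.08 for Wnt4, 1.90 for Wnt11, 1.22 for Wnt10a, 0.80 for Wnt6 and 0.62 for Wnt7b, all above the shifted median, and Wnt4 passed (adjusted p = 0.0395 in limma; over its alternatives the adjusted p ran from 0.0242 to 0.9996). With 2 arrays against 2, an exact two-sided permutation test of a single gene cannot go below p = 0.333, which is the value for Wnt4.

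**Figure D3:**
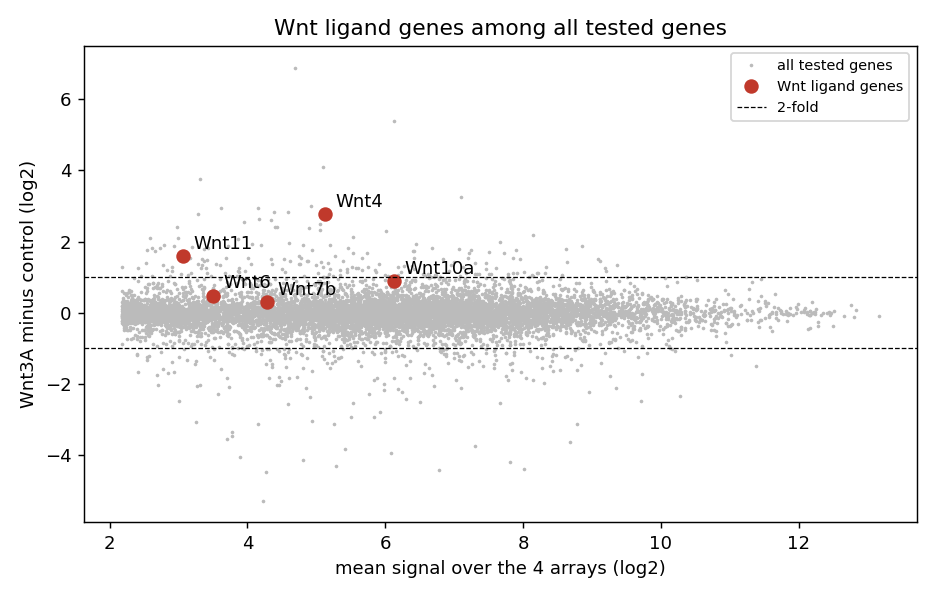
Difference of Wnt3A minus control (log2) against the mean signal over the 4 arrays (log2) for all 9294 tested genes in grey and the 5 tested Wnt ligand genes in red, with dashed lines at 2-fold. Wnt4 and Wnt11 lie above the upper line, and Wnt10a, Wnt6 and Wnt7b between the lines.

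The 4 members under the dim limit were not tested. Wnt5a, the polarity ligand of limb outgrowth, read 1.48 and 1.52 on the Wnt3A arrays, against 1.51 and 1.49 on the control arrays, in its brighter probe set. Its dimmer probe set read 1.34 and 0.79 on the Wnt3A arrays, against 1.18 and 1.70 on the control arrays, so the groups overlapped in both. Wnt5b, its close relative and a regulator of cartilage cells, read 1.69 and 1.91 on the Wnt3A arrays, against 1.67 and 1.999 on the control arrays, in the brighter of its 2 probe sets, whose name marks probes that may also bind other transcripts. The dimmer read 1.44 and 1.81 with Wnt3A, against 1.53 and 1.93 in control. In both Wnt5b probe sets the spread within each group exceeded the difference between groups.

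Wnt9a, a ligand of joint formation, read 1.75 and 1.48 on the Wnt3A arrays, against 1.82 and 2.08 on the control arrays. It was the 1 member with both Wnt3A arrays below both control arrays, at a log2 difference of -0.33 that was -0.02 after scaling to hybridization controls. Wnt2, known for lung and placenta development, read 1.16 and 2.92 on the Wnt3A arrays, against 1.41 and 1.48 on the control arrays. Only Wnt3A replicate 2 exceeded its background limit, by 0.11, and the log2 difference of 0.60 was -0.28 without that array.

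The other 10 Wnt ligand genes on the array had 11 probe sets, and 2 genes passed the dim limit. Wnt10b, which restrains fat cell formation, was above background on all 4 arrays, at 4.35 and 3.97 with Wnt3A, against 4.11 and 3.99 in control. Wnt3a itself, whose added protein an RNA array does not measure, read 2.78 and 2.81 on the Wnt3A arrays, against 3.10 and 2.91 on the control arrays, close to the background limits. Its log2 difference was -0.20 (95% confidence interval -0.64 to 0.23, adjusted p = 0.932 in limma). Wnt9a is its neighbour on chromosome 11. Wnt16 exceeded the limit only on Wnt3A replicate 1, at 2.88, with 2.02 on Wnt3A replicate 2, against 1.83 and 1.75 in control. Wnt1, Wnt2b, Wnt3, Wnt7a, Wnt8a, Wnt8b and Wnt9b were below background on all 4 arrays, Wnt7a among them, which drives satellite cell expansion in the mouse.

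Genes that act on Wnt ligands or answer to them were listed as 6 groups, and 0 members of any passed an adjusted p of 0.05 in limma, where the share over all genes was 0%. Of 12 export and processing genes on the array 10 were tested, 7 higher and 3 lower with Wnt3A, with a median difference of 0.19. Porcn read 4.92 and 6.60 on the Wnt3A arrays, against 4.71 and 5.91 on the control arrays, and Wls 10.24 and 9.95 on the Wnt3A arrays, against 9.76 and 9.997 on the control arrays, so both were above background on all arrays and their groups overlapped. Notum, an enzyme that strips Wnt proteins of their lipid, differed by 0.83, the heparan sulfatase gene Sulf2 by -1.02, the glypican gene Gpc6 by -0.38 and the retromer-associated sorting gene Snx3 by 0.27. The dimmer probe set of Gpc6 was above background on all arrays and differed by -0.99 without overlap between groups. Of 16 receptor genes 13 were tested, 6 higher and 7 lower, with a median of -0.04; Fzd4 differed by -1.04, Fzd7 by 0.84, Ptk7 by -0.60 and Fzd2 by 0.35. The other probe set of Fzd4 was below background on all arrays and differed by 0.05. Ror1 and Ror2, co-receptors for Wnt5a, were below background on all 4 arrays, and Ryk was above it on all 4.

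Of 13 secreted antagonists 6 were tested, 3 higher and 3 lower, with a median of -0.08. Sfrp2, a Wnt-binding antagonist, read 5.70 and 3.63 on the Wnt3A arrays, against 1.93 and 1.85 on the control arrays, which were below background. Dkk3 differed by -2.36, Sfrp4 by -2.06 and Dkk2 by 0.96. Of 5 R-spondin, Lgr and Rnf43 genes on the array 1 was tested, Lgr6, at -0.05. Of 22 genes downstream in the non-canonical branches 20 were tested, 12 higher and 8 lower, with a median of 0.09, and those of lowest p, Nlk at 0.37, Rac1 at 0.30, Camk2g at -0.38 and Dvl1 at 0.35, had adjusted p of 0.917 in limma. The canonical feedback list, some of whose genes stand in the lists above too, had 10 genes on the array. The 6 tested were all higher, with a median of 1.14, where 47.0% of all tested genes were higher. This list was chosen with earlier results of these data known, so that count is not a test. Among the 6, Lef1 differed by 1.46, with both control arrays below background. Sp5 was below background on all arrays and differed by 0.06 with overlap between groups. The 4 under the dim limit were below background on all arrays. Of these, Dkk1 differed by -0.30, Rnf43 by -0.15, Nkd1 by -0.08 and Lgr5 by 0.04. Axin2 read 5.13 and 6.14 on the Wnt3A arrays, against 3.25 and 3.21 on the control arrays, a difference of 2.41 (adjusted p = 0.409 in limma). Its other probe set was below background on all arrays and differed by 0.06. Nkd2 differed by 2.62 and Apcdd1 by 0.69.

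Profiles most like those of Wnt4 and Wnt11 were found by centring each gene on its mean over the 4 arrays and taking the root mean square distance, which 4 arrays define only coarsely. The nearest of the tested genes to Wnt4 were Il33, an alarmin cytokine gene (distance 0.36), Axin2 (0.36) and Cxcr6, a chemokine receptor gene (0.38). The nearest to Wnt11 were Me1, the gene of a malic enzyme that yields NADPH (distance 0.03), Dop1b (0.08) and Sgms1, a sphingomyelin synthase gene (0.09). For Wnt4 and each of its 3 neighbours Wnt3A replicate 2 read highest, and likewise for Wnt11 and its 3. That shared order follows from choosing neighbours by these same values and is no separate result.

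**Figure D4:**
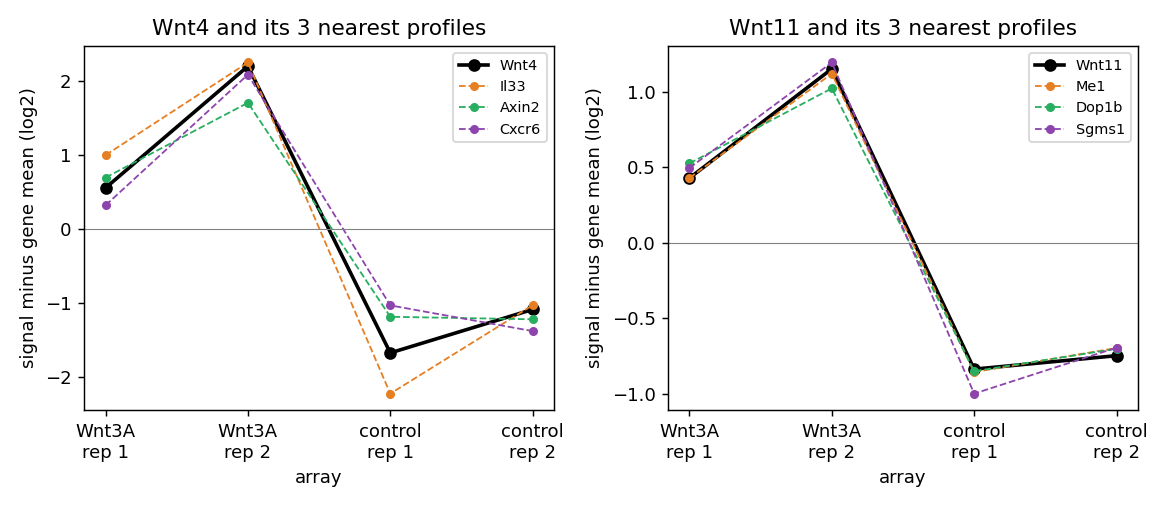
Signal minus the mean of the gene over the 4 arrays (log2) on each array for Wnt4 with its 3 nearest genes (left) and Wnt11 with its 3 nearest genes (right). In both panels the Wnt3A arrays lie above 0, the control arrays below it, and Wnt3A replicate 2 is highest, a likeness for which the neighbours were chosen.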

How the data were processed

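Wnt3A-treated and control C2C12 cells gave 2 arrays each; groups and replicate numbers came from the sample titles. The authors deposited 1 log2 value per probe set and array, with the base read from the values. Per the submitters' processing notes the tools were GCOS and PLIER, without version or role; for normalization, filters and build the entry is: not given in the sources used here. Nothing was normalized again.

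Of 22690 probe sets, 20380 had 1 platform symbol, and 20351 of those were updated by Entrez ID to RefSeq symbols (GRCm38.p6). The probe set of highest mean stood for a gene, and the dimmest 25% of 12393 genes, under 2.18, were left out. The remaining 9294 went into limma 3.58.1 under R 4.3.3 (lmFit, eBayes with an intensity trend, group only, two-sided, 4.68 degrees of freedom, Benjamini-Hochberg over all tested genes, threshold 0.05). The procedure was tested on simulated data for this comparison, with 9294 genes and independent noise between arrays. Of genes changed by a log2 difference of 2 it recovered 91.2%, and at 1 it recovered 18.6%. No simulated array stood apart as Wnt3A replicate 2 did, so these shares do not measure recovery in these arrays. In the fit itself Wnt4, at a difference of 2.76, did not pass. Replicates are called biological, but separate cultures are not stated, so p-values measure the spread between these arrays. The number of arrays limits the precision.

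Members, lists and background genes were chosen with earlier results of these data known. Text names all members and other Wnt ligands, Axin2, up to 4 genes of lowest p per Wnt list, and the 3 nearest profiles of members at least 2-fold apart without overlap. Porcn, Wls, Ror1, Ror2, Ryk, Lef1, Sp5, the 4 dim canonical feedback genes, Cela1, Mbp and the cell type markers named singly were picked after their values were seen. The motifs were chosen after the differences were known. Alternatives tried were a replicate block, 3 scalings, filters, probe set rules, other background limits and leaving out each array.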

Additional observations from a re-analysis of the deposited data

How the results depend on the processing

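The labels give both groups replicate numbers 1 and 2 but do not say that a number marks a shared culture; deviations from the group means correlated at 0.48 across genes, a hint from the data and not the design. With the replicate block 83 genes passed an adjusted p of 0.05 in limma, 1 of them a member, Wnt4 (adjusted p = 0.0242), while Wnt11 had an adjusted p of 0.0511. With arrays scaled to hybridization controls 49 genes passed, and 1 member, again Wnt4. With the dimmer 50% left out 1 gene passed and 0 members. Quantile normalization, median centring, no filter, no trend, the mean of probe sets and every probe set on its own gave 0 genes. Leaving out 1 array gave 0 to 0 genes and 0 to 0 members past the threshold, with 273 to 1340 genes at an unadjusted p under 0.05, and members without overlap between groups numbered 6 to 8, against 5 with all arrays, since 1 array against 2 meets that rule more easily. With 1 array left, a group is assumed to vary like the other. Members above background numbered 3 with each array's median as the limit (Wnt4, Wnt7b and Wnt10a) and 5 under the other limits; with the dim limit Wnt11 counted in control too. At the 95th percentile Wnt6 passed on 1 of the 2 control arrays, and with the median limit Wnt4 passed on 0 and Wnt7b on 1 of them. With 1 array left out differences ran from 1.94 to 3.58 for Wnt4, 1.22 to 1.94 for Wnt11, 0.26 to 1.54 for Wnt10a, 0.28 to 0.68 for Wnt6 and 0.23 to 0.37 for Wnt7b, so these 5 kept their sign. Below background, differences of Wnt2, Wnt5a and Wnt5b changed sign with 1 array left out. The cause of these changes was not tested. Dim signals limit what can be said of Wnt2, Wnt5a, Wnt5b and Wnt9a.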
